A study of Homo sapiens with 10 samples.

Results

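Interferon-stimulated genes are the genes that cells switch on when interferon reaches them, and 39 of them were followed here among the 58051 gene rows of a count table from HAP1 cells with and without RBM4. They were taken by name, and each of the 39 symbols matched 1 row of the table. HAP1 cells carry close to a single set of chromosomes and descend from the leukaemia line KBM-7. RBM4 encodes an RNA-binding protein that acts in splicing and translation. The paired-end libraries came from a first RBM4 knockout clone (clone 1, n = 3), a second one (clone 2, n = 2) and wild type HAP1 cells (n = 3), and 1 RBM4 knockout library and 1 wild type library were sequenced single-end. All groups were grown in the same medium, and the labels give no other agent. Each knockout group is a single clone, so what belongs to the clone and what belongs to the loss of RBM4 cannot be told apart within 1 clone.

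Type I interferons bind a receptor made of IFNAR1 and IFNAR2, whose kinases JAK1 and TYK2 phosphorylate STAT2. STAT2 and IRF9 act in a transcription factor complex, ISGF3, that binds the interferon-stimulated response element in the promoters of its target genes. The products act against viruses: they bind or cut viral RNA, block entry and release, tag proteins with the ubiquitin-like ISG15, or make more of the signalling factors themselves. Many are also transcribed at a basal level without interferon.

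The promoter of a target gene often carries the core of the response element, which was searched as GAAA, any 2 bases and GAAA again, or TTTC, any 2 bases and TTTC on the other strand. RefSeq promoters (GRCh38.p14, 250 bases before to 50 after a start site) were found for 31 of the 39 genes, and 21 of these 31 (67.7%) held the letters on either strand, where 1195 of all 27305 genes with a promoter (4.38%) held them. Overlapping matches were counted separately, and a match is a description of these letters, not a bound site. The 5 promoters printed next, up to 10 bases past the start site, belong to genes whose levels are described further on. Capitals mark each match. They are those of ISG15 (chr1:1013247-1013506, plus strand), HERC5 (chr4:88456869-88457128, plus strand), IFIT1 (chr10:89392373-89392632, plus strand), IFIT5 (chr10:89414318-89414577, plus strand) and DTX3L (chr3:122564088-122564347, plus strand).
ISG15: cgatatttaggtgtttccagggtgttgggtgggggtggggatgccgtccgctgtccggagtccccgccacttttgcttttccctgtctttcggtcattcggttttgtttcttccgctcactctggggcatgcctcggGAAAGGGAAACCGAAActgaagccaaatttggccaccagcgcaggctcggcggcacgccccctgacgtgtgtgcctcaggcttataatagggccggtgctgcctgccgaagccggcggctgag
HERC5: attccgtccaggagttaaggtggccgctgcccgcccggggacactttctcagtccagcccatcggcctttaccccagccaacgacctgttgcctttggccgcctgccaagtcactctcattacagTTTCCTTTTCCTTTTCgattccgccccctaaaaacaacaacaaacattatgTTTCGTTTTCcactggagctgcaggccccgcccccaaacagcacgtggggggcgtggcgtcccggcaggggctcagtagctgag
IFIT1: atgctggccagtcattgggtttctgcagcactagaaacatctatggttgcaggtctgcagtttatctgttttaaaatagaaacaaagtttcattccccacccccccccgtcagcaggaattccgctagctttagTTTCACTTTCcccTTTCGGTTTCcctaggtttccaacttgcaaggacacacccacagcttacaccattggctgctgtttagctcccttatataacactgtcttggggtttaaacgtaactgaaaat
IFIT5: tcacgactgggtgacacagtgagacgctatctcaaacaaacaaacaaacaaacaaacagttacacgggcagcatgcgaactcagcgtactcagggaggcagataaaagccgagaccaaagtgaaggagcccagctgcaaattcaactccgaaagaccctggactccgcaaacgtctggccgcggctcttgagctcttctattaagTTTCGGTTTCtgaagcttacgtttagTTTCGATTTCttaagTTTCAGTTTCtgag
DTX3L: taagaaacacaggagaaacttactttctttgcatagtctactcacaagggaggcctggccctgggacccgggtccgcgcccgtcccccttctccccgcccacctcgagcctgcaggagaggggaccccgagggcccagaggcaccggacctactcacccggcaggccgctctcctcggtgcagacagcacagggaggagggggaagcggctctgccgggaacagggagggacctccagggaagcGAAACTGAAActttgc

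The matches of ISG15 began 113 and 107 bases before its start site and overlapped each other. HERC5 held 3 matches, 2 of them overlapping, and IFIT5 held 3 within 45 bases of its start site. The match of DTX3L lies at chr3:122564332-122564341 and is the same stretch of DNA as the match in 1 of the PARP9 promoters, since these genes are transcribed away from each other. The promoters of OAS1 and STAT2 held no match in this window.

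The paired-end libraries held 33192095 to 55617525 counts each. RBM4 averaged 23.2 ± 1.11 CPM (counts per 1000000 of the scaled library size) in clone 1, 25.5 ± 0.369 CPM in clone 2 and 79.4 ± 0.651 CPM in wild type (SD, n = 3, 2 and 3), and it shares exons with a read-through gene, so this level is uncertain. ACTB, GAPDH and EEF1A1 together stood at 12700 to 14700 CPM in knockout libraries and 13200 to 14200 CPM in wild type libraries. The 11 markers of blood and vessel cells together stood at 0.148 to 0.423 CPM in knockout libraries and 0.339 to 0.356 CPM in wild type libraries, with CD3E, MS4A1, HBB, HBG1 and CDH5 at 0 in all 8. The levels of genes relative to their mean followed GC content differently between libraries. The Spearman correlation across genes was 0.283, -0.00917 and 0.395 in clone 1, 0.35 and -0.0506 in clone 2, and -0.426, -0.355 and -0.251 in wild type. GC-corrected values are given beside the results that they moved. The column names carry sample numbers, 1 to 5 for wild type and the first replicate of each clone, and 11 to 13 for knockout libraries alone.

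In HAP1 cells without any interferon added, 33 of the 39 genes had enough counts to be tested, and 6 stood near zero in every group. In wild type libraries 4 stood above 10 CPM per kilobase of exon, 18 between 1 and 10, and 17 below 1. On that per-length scale BST2, which encodes tetherin, a membrane protein that holds virus particles on the cell surface, came first, at 84.9 in clone 1, 88.7 in clone 2 and 87.0 in wild type. ADAR, the enzyme that edits adenosine to inosine in double-stranded RNA, came next at 34.5 in clone 1, 34.1 in clone 2 and 34.2 in wild type. EIF2AK2, which encodes the RNA-activated kinase PKR, followed at 13.5, 14.1 and 15.1 in the same order of groups. None of these 3 genes was called in any comparison. TRIM22 stood at 9.67, 9.06 and 11.9 per kilobase and STAT2 at 11.6, 11.4 and 9.90 in clone 1, clone 2 and wild type, so their order was not the same in the knockout clones and in wild type.

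**Figure D1:**
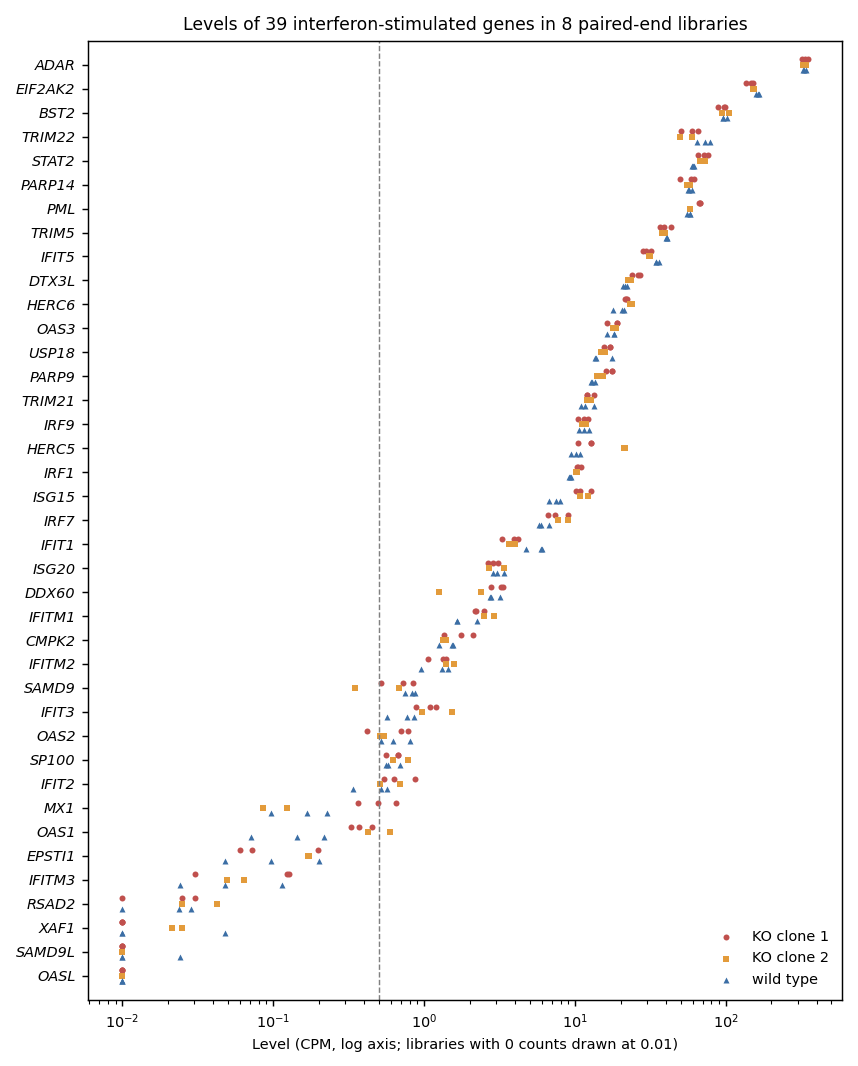
Levels of the 39 genes in each paired-end library, in CPM on a log axis, ordered by the wild type mean. Each point is a library of knockout clone 1 (circles), knockout clone 2 (squares) or wild type (triangles), and the dashed line marks 0.5 CPM, below which the 6 genes called near zero stand in every group.

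Near zero, with every group mean under 0.5 CPM, were OASL, SAMD9L, RSAD2, XAF1, IFITM3 and EPSTI1, and none of these 6 had enough counts to be tested. OASL, a relative of the oligoadenylate synthetases, had 0 counts in all 8 libraries, which allows up to 0.0541 to 0.0906 CPM per library (3 counts; counting error only). SAMD9L, an antiviral restriction factor, had 0 counts in all 5 knockout libraries and 0, 0 and 1 in wild type. RSAD2, which encodes the antiviral enzyme viperin, had 1, 0 and 1 counts in clone 1, 1 and 2 in clone 2, and 1, 1 and 0 in wild type. XAF1, a pro-apoptotic gene, had 0 counts in clone 1, 1 and 1 in clone 2, and 2, 0 and 0 in wild type. IFITM3, whose product blocks virus entry at endosomes, had 1, 7 and 5 counts in clone 1, 2 and 3 in clone 2, and 2, 4 and 1 in wild type. EPSTI1 had 2, 4 and 8 counts in clone 1, 7 and 8 in clone 2, and 2, 7 and 4 in wild type. Knockout and wild type libraries overlapped in each of the 5 genes with counts. EPSTI1 was the highest inside the limit. MX1 and OAS1 stood just outside it, with a highest group mean of 0.502 CPM (clone 1) and 0.508 CPM (clone 2). In wild type they averaged 0.164 and 0.144 CPM, and both entered the test only through knockout libraries.

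Of the 33 genes tested, 6 rose and 3 fell when the mean of the clones was set against wild type (edgeR's quasi-likelihood test, adjusted p below 0.05 over all 20747 features). That is 27.3% of the genes tested, where 18% of all features were called (9.87% up and 8.09% down). HERC5, ISG15, OAS1, STAT2, PARP9 and IRF7 rose, and IFIT1, IFIT5 and TRIM22 fell. Among the genes tested, OAS1 passed the filter on low counts only through its knockout libraries, and MX1 only through those of clone 1. The median log2 fold change of the 33 genes was 0.10, against 0.0020 over all features. In clone 1 alone 6 rose and 2 fell (24.2% of the genes tested, against 16% of all features, 9.37% up and 6.64% down). In clone 2 alone 3 rose and 1 fell (12.1%, against 10.8% of all features, 6.18% up and 4.59% down). These comparisons share the wild type libraries. Every knockout library stood above every wild type library in 8 of the 33 genes (24.2%, against 13.5% of all features) and below in 3 (9.09%, against 11.8%). Without wild type replicate 1 the mean of the clones gave 2 up and 1 down, where 8.97% of all features were called. Without wild type replicate 2 it also gave 2 and 1 (10.7% of all features), and without wild type replicate 3 it gave 4 and 1 (11.8%). Leaving out either clone 2 library left 1 library of that clone and also moved these counts. With GC correction 8 rose and 1 fell (14.1% of all features called), and with a term for the 2 runs of sample numbers 6 rose and 6 fell (19.7%). In the libraries numbered 1 to 5, with 1 library of each clone, falls outnumbered rises in the mean, as over all features.

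**Figure D2:**
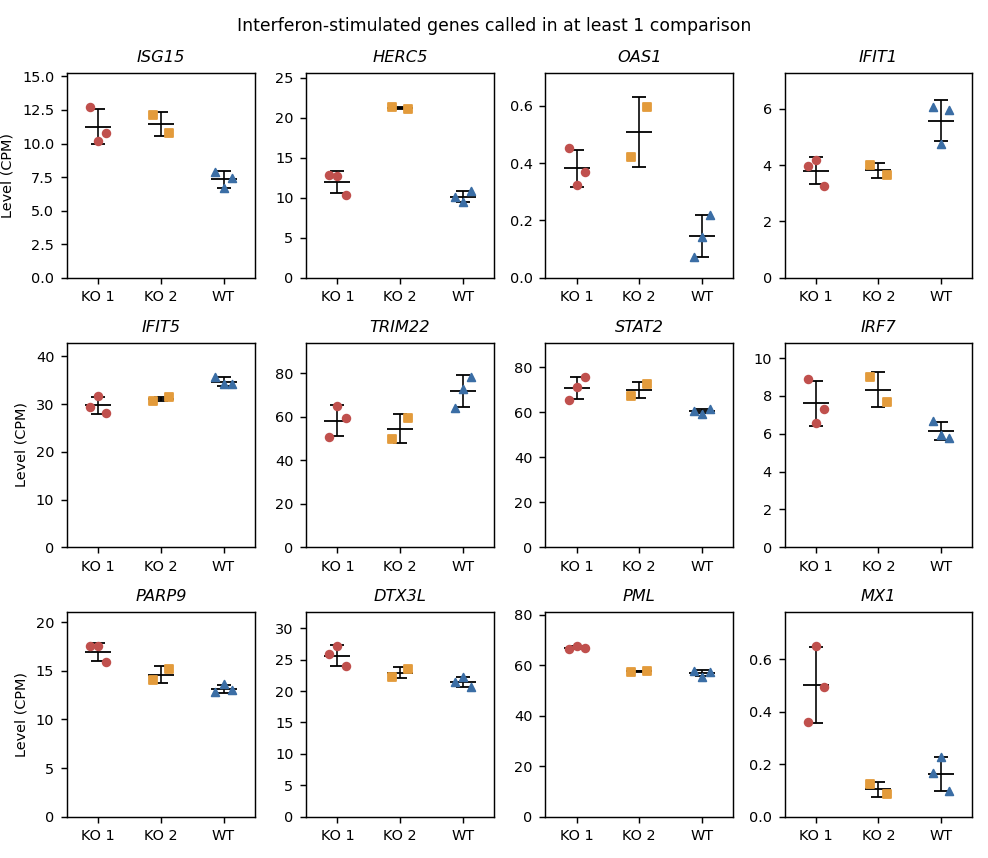
Level in CPM of the 12 genes called in at least 1 comparison with wild type, for the libraries of knockout clone 1 (KO 1), knockout clone 2 (KO 2) and wild type (WT). Points are libraries, bars are the mean and SD, and each vertical axis starts at 0; ISG15 and OAS1 stand higher in all 5 knockout libraries, HERC5 is highest in clone 2 and MX1 in clone 1.

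Of the 4 genes ISG15, HERC5, HERC6 and USP18, all tested, 2 rose and 0 fell in the mean of the clones (9.87% and 8.09% of all features). ISG15, the ubiquitin-like protein that is attached to other proteins during the response (ENSG00000187608, chromosome 1, 1001138 to 1014540), stood at 12.7, 10.2 and 10.8 CPM in clone 1, 12.1 and 10.8 CPM in clone 2, against 7.88, 6.68 and 7.42 CPM in wild type. All 5 knockout libraries stood above all 3 wild type libraries. It rose by a log2 fold change of 0.62 (SE 0.099, adjusted p = 0.000731 in edgeR's test), with 0.61 in clone 1 (adjusted p = 0.00206) and 0.64 in clone 2 (adjusted p = 0.00321). The difference between the clones was 0.03 (SE 0.12, adjusted p = 0.979). ISG15 passed the test in the mean of the clones under all 18 alternatives run, with log2 fold changes of 0.48 to 0.76.

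HERC5, the ligase that attaches ISG15 to newly made proteins (ENSG00000138646, chromosome 4, 88457117 to 88506163), stood at 12.8, 12.7 and 10.4 CPM in clone 1, 21.3 and 21.1 CPM in clone 2, against 10.1, 9.45 and 10.8 CPM in wild type. Both clone 2 libraries stood above all others, and clone 1 replicate 3 lay within the wild type range. HERC5 rose in clone 2 by 1.07 (SE 0.10, adjusted p = 1.17e-05), a 2.09-fold higher mean CPM. In clone 1 the log2 fold change was 0.24 (SE 0.095, adjusted p = 0.0981), which passed the test with GC correction (0.39, adjusted p = 0.0128). The clones differed in the test of the difference itself (clone 2 over clone 1, 0.82, SE 0.10, adjusted p = 0.000307), where 2.09% of all features were called (1.1% higher and 0.993% lower in clone 2). In the mean of the clones it rose by 0.66 (adjusted p = 0.000173), and with the 5 knockout libraries as 1 group this call was lost (0.63, adjusted p = 0.158). HERC6, a relative of HERC5, had a log2 fold change of 0.20 (SE 0.067, adjusted p = 0.0588), with all 5 knockout libraries (21.4 to 23.9 CPM) above the wild type libraries (17.8 to 21.1 CPM), and it passed the test with GC correction (0.23, adjusted p = 0.0260; 0.28 in clone 2, adjusted p = 0.0334). USP18, the protease that takes ISG15 off proteins and also restrains the receptor, was at 14.9 to 17.0 CPM in knockout libraries and 13.5 to 17.5 CPM in wild type libraries (0.10, SE 0.09, adjusted p = 0.504). USP18 has a close copy, USP41, that can share its reads, so its value is uncertain.

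Of the 3 oligoadenylate synthetase genes tested, whose products make the messenger that activates RNase L, 1 rose and 0 fell (9.87% and 8.09% of all features). OAS1 (ENSG00000089127, chromosome 12, 112906777 to 112933222) had 15, 18 and 15 counts in clone 1, 17 and 28 in clone 2, and 3, 5 and 9 in wild type. These counts correspond to 0.383 ± 0.0651 CPM in clone 1, 0.508 ± 0.123 CPM in clone 2 and 0.144 ± 0.0735 CPM in wild type (SD, n = 3, 2 and 3). The filter on low counts kept OAS1 only through its knockout libraries, where it was high. All 5 knockout libraries stood above all 3 wild type libraries, while the clones overlapped with each other, and OAS1 rose by 1.59 (SE 0.40, adjusted p = 0.0142 in edgeR's test), with 1.37 in clone 1 (adjusted p = 0.0501) and 1.81 in clone 2 (adjusted p = 0.0208). At counts this low the call of the mean was lost without wild type replicate 1 (1.24, adjusted p = 0.0891), wild type replicate 2 (1.58, 0.0509) or clone 2 replicate 2 (1.44, 0.0525). The call of clone 2 was lost without either of its own libraries (adjusted p = 0.0529 and 0.181) and without wild type replicate 1 (0.0941) or 2 (0.0586). In the libraries numbered 1 to 5 alone, OAS1 had 1.58 in the mean (adjusted p = 0.0552) and 1.52 in clone 2 (0.153). OAS3, the largest synthetase, was the most abundant of the family at 16.2 to 18.8 CPM in knockout libraries and 16.2 to 18.2 CPM in wild type libraries (0.05, SE 0.073, adjusted p = 0.691). OAS2 was at 0.420 to 0.786 CPM in knockout libraries and 0.514 to 0.800 CPM in wild type libraries (-0.16, SE 0.27, adjusted p = 0.728).

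The IFIT genes lie next to each other on chromosome 10, and of the 4 tested 0 rose and 2 fell (9.87% and 8.09% of all features). IFIT1, which binds the caps of viral RNA (ENSG00000185745, 89392546 to 89406486), stood at 3.96, 4.17 and 3.26 CPM in clone 1, 3.99 and 3.63 CPM in clone 2, against 6.05, 4.74 and 5.94 CPM in wild type. All 5 knockout libraries stood below all 3 wild type libraries. IFIT1 fell by 0.56 on the log2 scale in clone 1 (SE 0.14, adjusted p = 0.0148), by 0.55 in clone 2 (SE 0.15, adjusted p = 0.0343) and by 0.56 in the mean of the clones (SE 0.12, adjusted p = 0.00677). The call of the mean was lost without wild type replicate 1 (-0.50, adjusted p = 0.0514). Of the 17 alternatives run for each clone, the call of clone 1 held under 11 and that of clone 2 under 9. The call of clone 1 was lost without wild type replicate 1 (0.0767), wild type replicate 3 (0.0557) or clone 1 replicate 3 (0.0502), and that of clone 2 without wild type replicate 1 (0.133) or 3 (0.104) or either of its own libraries (0.112 and 0.181). With GC correction IFIT1 had -0.44 in the mean (adjusted p = 0.0216), -0.44 in clone 1 (0.0429) and -0.45 in clone 2 (0.0774), so that the call of clone 2 ended. The sample-number term ended the calls of both clones (0.0604 in clone 1 and 0.0563 in clone 2) and not that of the mean (0.0303). IFIT5, which binds RNA with a bare triphosphate end (ENSG00000152778, 89414586 to 89421001), stood at 29.4, 31.6 and 28.1 CPM in clone 1, 30.7 and 31.4 CPM in clone 2, against 35.7, 34.3 and 34.1 CPM in wild type. It fell by 0.19 (SE 0.054, adjusted p = 0.0266), without overlap between knockout and wild type libraries. IFIT5 has a GC content of 37.4%, and with GC correction its log2 fold change was -0.01 (adjusted p = 0.941). In clone 1 IFIT5 fell by 0.22 (adjusted p = 0.0242), and had -0.03 with GC correction (0.793). The call of the mean was also lost without wild type replicate 1 (adjusted p = 0.133), 2 (0.0690) or 3 (0.0638) and without clone 2 replicate 1 (0.0809).

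IFIT3, the partner that stabilises IFIT1, stood at 0.876, 1.19 and 1.09 CPM in clone 1, 0.965 and 1.53 CPM in clone 2, against 0.570, 0.771 and 0.849 CPM in wild type. Its knockout libraries all stood above the wild type libraries, and the log2 fold change of IFIT3 was 0.67 (SE 0.23, adjusted p = 0.0663), which passed the test with GC correction (0.74, adjusted p = 0.0486). IFIT2 was at 0.510 to 0.864 CPM in knockout libraries and 0.339 to 0.570 CPM in wild type libraries (0.43, SE 0.28, adjusted p = 0.327). Whether IFIT2 and IFIT3 differed from IFIT1 and IFIT5 was not tested. Of the entry inhibitors, IFITM1 averaged 2.28 ± 0.172 CPM in clone 1, 2.70 ± 0.308 CPM in clone 2 and 1.85 ± 0.330 CPM in wild type (log2 fold change 0.42, SE 0.15, adjusted p = 0.0776; 0.54 and 0.0447 with the sample-number term), and IFITM2 had a log2 fold change of 0.16 (SE 0.19, adjusted p = 0.625). The exons of IFITM1 and IFITM2 share 351 bases in GENCODE 29, so how reads were divided between them is uncertain.

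Among the factors that drive the response, STAT2 and IRF7 rose. STAT2, the ISGF3 subunit that activates transcription (ENSG00000170581, chromosome 12, 56341597 to 56360155), stood at 65.6, 71.1 and 75.8 CPM in clone 1, 67.3 and 72.6 CPM in clone 2, against 60.7, 59.4 and 61.3 CPM in wild type. All knockout libraries stood above the wild type libraries. STAT2 rose by 0.22 (SE 0.055, adjusted p = 0.0148), with 0.23 in clone 1 (adjusted p = 0.0217) and 0.21 in clone 2 (adjusted p = 0.0659). IRF7, which drives interferon genes themselves (ENSG00000185507, chromosome 11, 612553 to 615999), stood at 8.91, 6.59 and 7.31 CPM in clone 1, 9.01 and 7.67 CPM in clone 2, against 6.67, 5.96 and 5.77 CPM in wild type. Clone 1 replicate 2 lay within the wild type range. IRF7 rose by 0.37 (SE 0.11, adjusted p = 0.0401), and with its GC content of 67.0% the GC-corrected value was 0.24 (adjusted p = 0.167).

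Both calls were sensitive to single libraries. STAT2 kept its call of the mean under 12 of 18 alternatives, with log2 fold changes of 0.13 to 0.24. Its call of clone 1 held under 11 of 17 (0.12 to 0.27). STAT2 missed the threshold without wild type replicate 1 (adjusted p = 0.0750), 2 (0.0888) or 3 (0.0537) or clone 2 replicate 2 (0.0653), and with the sample-number term (0.14, adjusted p = 0.0931). IRF7 missed it without any 1 of wild type replicates 1 (0.0742), 2 (0.139) and 3 (0.151), clone 1 replicates 1 (0.0515) and 3 (0.0501) and clone 2 replicate 1 (0.137), missed it with the knockout libraries as 1 group (0.0562), and passed it with the sample-number term (0.54, adjusted p = 0.00282). For clone 1 the call of STAT2 was lost without clone 1 replicate 3 (0.0705) or wild type replicate 1 (0.0922), 2 (0.104) or 3 (0.0610), and with the sample-number term (0.145). IRF1, a transcription factor induced by interferon gamma, was at 10.1 to 11 CPM in knockout libraries and 9.08 to 9.36 CPM in wild type libraries, without overlap, and did not pass the test (0.17, SE 0.074, adjusted p = 0.129). IRF9, the DNA-binding subunit of ISGF3, was at 10.5 to 12.1 CPM in knockout libraries and 10.6 to 12.3 CPM in wild type libraries (-0.01, SE 0.08, adjusted p = 0.947). In GENCODE 29, 48.4% of its exon bases are shared with another gene on the same strand, so its value is uncertain.

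PARP9 and DTX3L, whose products work as a pair that modifies histones and viral proteins, are transcribed in opposite directions around the shared stretch of promoter shown above. PARP9, an ADP-ribosyltransferase (ENSG00000138496, chromosome 3, 122527924 to 122564577), stood at 17.5, 17.5 and 15.9 CPM in clone 1, 14.0 and 15.2 CPM in clone 2, against 12.8, 13.6 and 13 CPM in wild type. DTX3L, a ubiquitin ligase (ENSG00000163840, 122564238 to 122575203), stood at 25.9, 27.1 and 23.9 CPM in clone 1, 22.3 and 23.5 CPM in clone 2, against 21.4, 22.2 and 20.7 CPM in wild type. In both genes all knockout libraries stood above the wild type libraries, with clone 1 the highest. PARP9 rose in clone 1 by 0.37 (SE 0.077, adjusted p = 0.00544) and had 0.15 in clone 2 (SE 0.086, adjusted p = 0.312), and DTX3L rose in clone 1 by 0.26 (SE 0.068, adjusted p = 0.0201) and had 0.10 in clone 2 (SE 0.076, adjusted p = 0.483).

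Neither gene passed the test of clone 2 against clone 1, with log2 differences of -0.22 (SE 0.086, adjusted p = 0.370) for PARP9 and -0.16 (SE 0.076, adjusted p = 0.531) for DTX3L. In the mean of the clones PARP9 rose by 0.26 (adjusted p = 0.0195) and DTX3L had 0.18 (adjusted p = 0.0620), which passed the test with GC correction (0.24, adjusted p = 0.00691). The PARP9 call of clone 1 held under all 17 alternatives. Its call of the mean was lost without wild type replicate 1 (adjusted p = 0.121), 2 (0.0624) or 3 (0.0849) or clone 2 replicate 2 (0.0883). The DTX3L call of clone 1 was lost without clone 1 replicate 2 (0.0709) or wild type replicate 1 (0.0973), 2 (0.0559) or 3 (0.0945). PARP14, a larger ADP-ribosyltransferase on the same chromosome, was at 49.2 to 60.9 CPM in knockout libraries and 56.2 to 59.1 CPM in wild type libraries (-0.03, SE 0.065, adjusted p = 0.831; -0.15 and 0.0430 in the libraries numbered 1 to 5). Exons of PARP9 and DTX3L overlap by 217 bases on opposite strands. Counting by strand is not stated in the sources used here, so reads of one may count for the other.

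**Figure D3:**
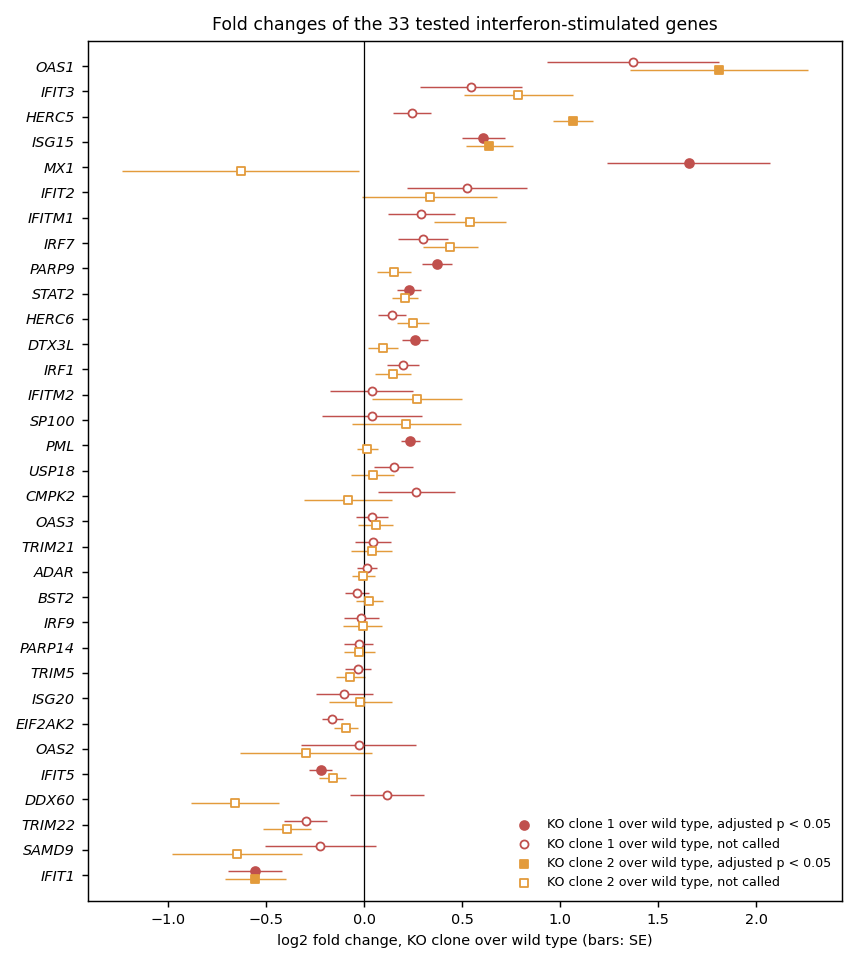
Log2 fold change over wild type of the 33 tested genes in knockout clone 1 (circles) and knockout clone 2 (squares), ordered by the mean of the clones, with bars for the SE. Filled symbols passed edgeR's test at an adjusted p below 0.05; ISG15 and IFIT1 are filled in both clones, and MX1 lies at 1.66 in clone 1 and -0.63 in clone 2.

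MX1 and PML rose in clone 1, and neither was called in clone 2 or in the mean of the clones. MX1, a dynamin-like GTPase that traps viral nucleocapsids (ENSG00000157601, chromosome 21, 41420304 to 41459214), had 12, 36 and 20 counts in clone 1, 5 and 4 in clone 2, and 7, 8 and 4 in wild type. In CPM these were 0.363, 0.650 and 0.494 in clone 1, 0.124 and 0.0850 in clone 2, and 0.166, 0.228 and 0.0970 in wild type. Clone 1 stood above all other libraries, and the filter on low counts kept MX1 only through clone 1, where it was high. MX1 rose in clone 1 by 1.66 (SE 0.42, adjusted p = 0.0160) and had -0.63 in clone 2 (SE 0.61, adjusted p = 0.590), and the difference of clone 2 over clone 1 passed the test (-2.29, SE 0.51, adjusted p = 0.0313). With DESeq2 that difference missed it (adjusted p = 0.0807), as it did when wild type replicate 1 (0.0503) was left out, or clone 1 replicate 2 (0.156) or 3 (0.0589), or clone 2 replicate 1 (0.168) or 2 (0.366). The rise in clone 1 was lost without clone 1 replicate 2 (0.0704) or wild type replicate 1 (0.0636) or 3 (0.0651). Counting the other settings as well, it held under 11 of 16 alternatives, with log2 fold changes of 1.15 to 1.93. PML, which scaffolds the nuclear bodies named after it (ENSG00000140464, chromosome 15, 73994673 to 74047812), stood at 66.5, 67.5 and 67.0 CPM in clone 1, 57.5 and 57.6 CPM in clone 2, against 57.6, 55.4 and 57.5 CPM in wild type. It rose in clone 1 by 0.24 (SE 0.049, adjusted p = 0.00555) and had 0.02 in clone 2 (SE 0.055, adjusted p = 0.900), and the difference of clone 2 over clone 1 was -0.22 (SE 0.055, adjusted p = 0.0636). With GC correction the value of clone 1 was 0.11 (adjusted p = 0.237), and without wild type replicate 2 it was 0.21 (adjusted p = 0.0561). SP100, another protein of these bodies, was at 0.559 to 0.786 CPM in knockout libraries and 0.558 to 0.689 CPM in wild type libraries (0.13, SE 0.23, adjusted p = 0.749).

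TRIM22, an antiviral ubiquitin ligase (ENSG00000132274, chromosome 11, 5689689 to 5737089), stood at 50.5, 64.8 and 59.4 CPM in clone 1, 49.7 and 59.4 CPM in clone 2, against 63.8, 72.9 and 78.3 CPM in wild type. Clone 1 replicate 2 lay above the lowest wild type library. TRIM22 fell by 0.35 (SE 0.098, adjusted p = 0.0382), and with GC correction it had -0.27 (adjusted p = 0.111). The call was lost without wild type replicate 2 (adjusted p = 0.107) or 3 (0.106), clone 1 replicate 3 (0.0728) or clone 2 replicate 1 (0.0944). Its neighbour TRIM5, which recognises retroviral capsids, was at 36.4 to 43.1 CPM in knockout libraries and 40.1 to 40.6 CPM in wild type libraries (-0.05, SE 0.059, adjusted p = 0.607). TRIM21, a cytosolic receptor for antibodies, had a log2 fold change of 0.04 (SE 0.084, adjusted p = 0.776).

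The remaining effector genes did not pass the test in any comparison with wild type, though 3 of them did in the mean of the clones under other settings. BST2 was at 88.1 to 105 CPM in knockout libraries and 95.5 to 101 CPM in wild type libraries (log2 fold change -0.0048, SE 0.055, adjusted p = 0.968). ADAR was at 321 to 350 CPM in knockout libraries and 325 to 340 CPM in wild type libraries (0.0057, SE 0.047, adjusted p = 0.954). The sign of the BST2 and ADAR values turned under several alternatives. EIF2AK2 stood at 135, 152 and 147 CPM in clone 1, 151 and 153 CPM in clone 2, against 162, 166 and 158 CPM in wild type, all knockout libraries lower, and had -0.13 (SE 0.049, adjusted p = 0.0920). With the sample-number term EIF2AK2 passed the test (-0.18, adjusted p = 0.0228), and with GC correction its sign turned (0.03). DDX60, a helicase of the RNA sensing pathway, stood at 2.78, 3.34 and 3.23 CPM in clone 1, 1.26 and 2.36 CPM in clone 2, against 3.18, 2.71 and 2.76 CPM in wild type. Both clone 2 libraries were the lowest, and clone 2 had -0.66 (SE 0.22, adjusted p = 0.0801). In the mean DDX60 had -0.27 (adjusted p = 0.317), and it passed the test with the sample-number term (-0.59, adjusted p = 0.0303), in the libraries numbered 1 to 5 (-0.63, 0.0177) and without clone 2 replicate 2 (-0.55, 0.0315). SAMD9, the neighbour of SAMD9L, had -0.44 (SE 0.26, adjusted p = 0.277), and passed the test with the sample-number term (-0.94, adjusted p = 0.0387) and in the libraries numbered 1 to 5 (-0.95, 0.0443). The exonuclease gene ISG20 had -0.06 (SE 0.13, adjusted p = 0.799), and CMPK2, which encodes a mitochondrial nucleotide kinase and lies beside RSAD2, had 0.09 (SE 0.18, adjusted p = 0.773).

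Whether a promoter held the response element letters did not follow the calls in one direction. Of the 18 tested genes with the letters, 3 rose, 2 fell and 13 were not called in the mean of the clones, where 9.87% and 8.09% of all features were called up and down. Of the 8 tested genes whose promoters lacked them, 2 rose, 0 fell and 6 were not called, and of the 7 tested genes whose promoter was not found 1 rose, 1 fell and 5 were not called. The 2 that rose without the letters were STAT2 and OAS1, which the filter on low counts kept only through its knockout libraries. IFIT1 and IFIT5, whose promoters are shown above with 2 and 3 matches, fell, while ISG15 and HERC5, with 2 and 3 matches, rose. With GC correction IFIT5 had a log2 fold change of -0.01 (adjusted p = 0.94 in edgeR's test). Of these genes ISG15 alone kept its call of the mean under all 18 alternatives.

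The single-end pair, with no replicates, gave values for 32 of the 39 genes (at least 20 counts in the pair). The 9 genes called in the paired-end mean of the clones all had the same sign there, where 85.2% of all called features with a ratio did. ISG15 had 397 counts in the knockout library and 237 in the wild type library (log2 ratio 0.84), HERC5 had 559 and 292 (1.03), OAS1 had 21 and 8 (1.28), and IFIT1 had 160 and 236 (-0.46). STAT2 had a log2 ratio of 0.25, PARP9 of 0.31, IRF7 of 0.34, TRIM22 of -0.16 and IFIT5 of -0.09. Ratios of 1 or more were found in 4 of the 32 genes and ratios of -1 or less in 0, against 3.37% and 1.51% of all features. These 4 were OAS1, HERC5, IFITM1 with 97 and 47 counts (1.11) and IFITM2 with 59 and 20 counts (1.56). IFITM1 and IFITM2 share 351 exon bases, so their ratios may not be separate. Neither of the 2 was called in the paired-end mean of the clones. The labels do not say which clone the single-end knockout library came from, and nothing was tested in this pair.

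**Figure D4:**
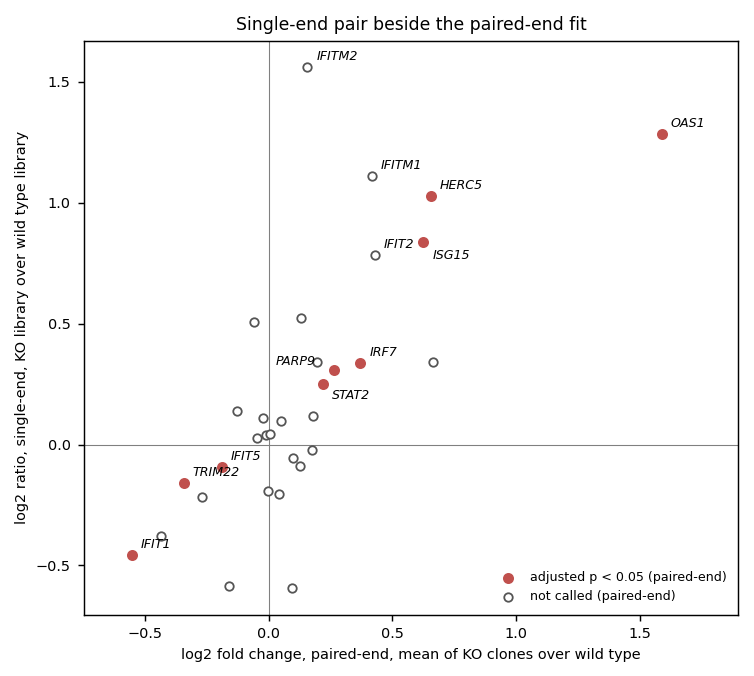
Log2 ratio of the single-end knockout library over the single-end wild type library (vertical) against the paired-end log2 fold change of the mean of the knockout clones over wild type (horizontal), for the 32 genes with a single-end ratio. Filled points passed edgeR's test in the paired-end libraries; each of the 9 filled points has the same sign on both axes.

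The genes upstream of the response were described from a separate list of 29. Of 8 interferon genes in it, IFNA1, IFNB1, IFNE, IFNK, IFNL2, IFNL3 and IFNG had 0 counts in all 8 paired-end libraries and IFNL1 had 1 count, in clone 2 replicate 1. Of the 21 genes tested, 4 rose and 3 fell in the mean of the clones (33.3%, against 18% of all features; median -0.02). IFNAR2, a chain of the type I receptor, fell by 0.36 (SE 0.070, adjusted p = 0.00294), to 15.0 and 15.1 CPM in clones 1 and 2, against 19.4 CPM in wild type. IL10RB, the chain shared by the receptors of interferon lambda and interleukin-10, fell by 0.57 (SE 0.076, adjusted p = 0.000202), and JAK2 by 0.25 (adjusted p = 0.0454). STAT3 rose by 0.27 (SE 0.045, adjusted p = 0.00101), SOCS3, a feedback inhibitor of JAK signalling, by 0.65 (SE 0.17, adjusted p = 0.0151), IRF5 by 0.33 (adjusted p = 0.0161) and IFNLR1 by 0.27 (adjusted p = 0.0443). GC correction ended the calls of JAK2 (-0.11, adjusted p = 0.415), IRF5 (0.22, 0.0794) and IFNLR1 (0.17, 0.150). IFNAR1 (0.03, adjusted p = 0.762), JAK1 (0.16, adjusted p = 0.0848) and TYK2 (-0.05, adjusted p = 0.574) were not called, and with GC correction TYK2 passed the test (-0.16, adjusted p = 0.0113).

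A further list of 30 interferon-stimulated genes outside the 39 held 24 that were tested. Of these 9 rose and 2 fell (45.8%, against 18% of all features, with a median of 0.16). This list and the upstream list were chosen with earlier results of these data known, so their shares are descriptions only. The largest rises were those of IFIH1, the RNA sensor MDA5, at 4.01 CPM in clone 1, 4.59 CPM in clone 2 and 1.98 CPM in wild type (1.12, SE 0.15, adjusted p = 0.000253), and of IFI35 at 2.80, 2.20 and 1.15 CPM in the same order (1.11, SE 0.15, adjusted p = 0.000220). PSMB9, an immunoproteasome subunit, rose by 0.78 (adjusted p = 0.00993) and the peptide transporter TAP1 by 0.36 (adjusted p = 0.000509). PSMB8, another immunoproteasome subunit, had 0.56 (SE 0.22, adjusted p = 0.0888). SHFL rose by 0.44, HELZ2 by 0.40, TDRD7 by 0.33, PARP12 by 0.26 and LGALS3BP by 0.19. PLSCR1 fell by 0.26 (adjusted p = 0.0195) and LAP3 by 0.15 (adjusted p = 0.0400). With GC correction PLSCR1 (-0.15, adjusted p = 0.157), LAP3 (-0.11, 0.0942) and LGALS3BP (0.07, 0.395) were not called, and TRIM14 (-0.07, adjusted p = 0.346 without it) passed the test (-0.17, 0.0106). IFI44, IFI44L, MX2 and RTP4 had 0 counts in all 8 libraries.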

How the data were processed

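RNA of HAP1 cells was sequenced in 10 libraries made with a stranded mRNA kit, per the labels' protocols. The authors deposited raw counts per gene and repeat subfamily, whole numbers with no normalization. STAR 2.5.2a and GRCh38 (hg38) are named in the submitters' processing notes, and TEToolkit in the name of the deposited tables. The annotation, the strand setting and how reads with several alignments were counted are details not given in the sources used here. A gene name table gave symbols (56948 of 58051 identifiers), and coordinates, exon lengths and GC content came from GENCODE 29 on GRCh38 (57447 identifiers).

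Counts of the 8 paired-end libraries were filtered with filterByExpr, which left 20747 features, scaled with TMM and tested with edgeR 4.0.16 (quasi-likelihood F test, robust, 1 mean per group; R 4.3.3, limma 3.58.1). Benjamini-Hochberg adjustment ran over all features, with calls at an adjusted p below 0.05. The SE was taken as the log2 fold change (unsigned) over the root of F, and can be too small where counts are few. Single-end log2 ratios used a prior count of 2. Counts per kilobase used the union of a gene's exons.

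The 18 alternatives were RLE size factors, DESeq2 1.42.0, no filter, TMM from gene rows, replicate block, sample-number terms, a GC offset (lowess span 0.3) with and without the block, the knockout libraries as 1 group, and leaving out each library. Those for the lists outside the 39 genes and for single clones were added after the data were seen. Simulated counts with changed features were tested with the same code: for the mean of the clones 88% of features changed 2-fold and 50% of those changed 1.3-fold were recovered, and 2 of 20104 unchanged features were called. The simulated libraries held no GC trend and no effect of sample numbers, so they do not give the rate of false calls where these act. Each simulated feature had a spread set by its abundance alone, and a change was the same in both clones. Recovery and false calls may differ where features vary more or the clones differ. The labels do not say whether replicates are separate cultures. The p-values then measure only how far these libraries spread, which may be technical.

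The genes, the lists and the tests were chosen with earlier results of these data known. The rule for naming took the 39 genes, RBM4, the called genes of the 2 lists of other interferon genes, and a few genes of the receptor pathway, of which 1 is not reported here. PSMB8 and TRIM14 were named after their values were seen.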

Additional observations from a re-analysis of the deposited data

Results flagged for a closer look

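HERC5 and MX1 are given here because the knockout clones differed in a direct test of one against the other. HERC5 was higher in clone 2 than in clone 1 by 0.82 on the log2 scale. This held under the 12 alternatives given here for this comparison (0.73 to 0.87). They leave out GC correction, the replicate block and the sample-number settings. MX1 was lower in clone 2 than in clone 1, with a log2 difference of -2.29. That difference rests on 9 counts in clone 2 and 68 in clone 1, and passed the test under 6 of the same 12 alternatives. Groups of 2 or 3 libraries are too small to look for a single library that stands apart.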

How the results depend on the processing

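ISG15 alone of the 9 genes called in the mean of the clones kept its call under all 18 alternatives, and no called gene changed sign. Of the 24 genes not called, 8 were called under at least 1 alternative and 12 changed sign in at least 1. Leaving out 1 library at a time gave 2 to 6 rises and 1 to 4 falls in the mean of the clones, 3 to 6 and 0 to 3 in clone 1, and 2 to 5 and 0 to 2 in clone 2. It gave 1 gene higher and 0 to 1 lower in clone 2 than in clone 1, 1 to 4 rises and 2 to 3 falls among the upstream genes, and 4 to 10 and 0 to 2 among the further interferon-stimulated genes.

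With GC correction the number of falls was 1 in clone 1, 0 in clone 2 and 1 in the mean, where the main test gave 2, 1 and 3. The sample-number term gave 6 falls in the mean and 5 rises and 3 falls in clone 2, and the libraries numbered 1 to 5 alone gave 7 falls in the mean, 4 in clone 1 and 2 in clone 2. Without a filter, clone 2 had 5 rises and 3 falls, and 2 genes were lower in clone 2 than in clone 1. DESeq2 gave 2 falls in clone 2, and 0 genes lower in clone 2 than in clone 1. The replicate block gave 6 rises and 2 falls in clone 2, and with GC correction as well 5 rises in clone 2 and 1 fall in clone 1. Deviations from the group means correlated at -0.233 to 0.054 between same-numbered knockout and wild type libraries, so no pairing by number was seen there. Between same-numbered libraries of the clones they correlated at 0.253 and 0.197, over 2 pairs only. These 2 pairs are not separate, since the 2 clone 2 libraries deviate from their mean by equal and opposite amounts. Their replicate numbers also go with the runs of sample numbers (4 and 5, then 11 and 13). GC correction with and without the block gave 2 rises among the upstream genes and 1 fall among the further interferon-stimulated genes, which had 1 fall without a filter and 0 with the sample-number term. The cause of these shifts was not tested.

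Sign changes were all of genes not called. OAS2 had 0.0184 with the sample-number term, 0.0096 in the libraries numbered 1 to 5, and -0.302 to 0.0178 without 1 library. OAS3 had -0.0434 and -0.0494 in those fits, -0.0234 with GC correction and -0.0188 with the block as well (-0.0096 to 0.0717 without 1 library). BST2 had 0.0029 without a filter, 0.0645 with the term and 0.0597 in the first libraries (-0.0488 to 0.0225 without 1 library). PARP14 had 0.0714 with GC correction and 0.0793 with the block as well, EIF2AK2 0.0272 and 0.0293 in those fits, and PML -0.0010 in the second of them. ADAR had -0.0025 with RLE factors, -0.0025 with DESeq2, -0.0069 with TMM from gene rows, -0.0413 with the term, -0.0459 in the first libraries, -0.0069 with GC correction and -0.0044 with the block as well (-0.0216 to 0.0179 without 1 library). Without 1 library, PARP14 had -0.0568 to 0.0060, IFITM2 -0.0146 to 0.277, ISG20 -0.162 to 0.0120, IRF9 -0.0710 to 0.0286, TRIM21 -0.0247 to 0.123 and CMPK2 -0.0067 to 0.162. Genes under about 1 CPM, such as OAS1 and MX1, are limited by their counts.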
